A study of Caenorhabditis elegans with 2 samples.

Results

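The genes described here are the homeobox genes of Caenorhabditis elegans whose symbols are ceh- and a number and the basic helix-loop-helix (bHLH) genes whose symbols are hlh- and a number, without hlh-1 and hlh-30. They were taken by symbol from the Ensembl annotation of the genome build WBcel235. The rule uses no measured value, but it was set with earlier results of these data known. There are 86 of them, 63 ceh and 23 hlh genes, among 19973 nuclear protein-coding genes. Of the 86, 24 lie on the X chromosome (27.9%), where 13.7% of all nuclear protein-coding genes lie. The others lie on chromosomes II (19), V (14), III (11), I (10) and IV (8).

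The protein followed was DAF-16, a FOXO factor that insulin-like signalling keeps out of the nucleus. Its binding was measured by chromatin immunoprecipitation and sequencing (ChIP-seq) with an antibody against GFP. There was 1 group of 2 biological replicates of whole L4 hermaphrodites, collected 54 hours after synchronisation by L1 starvation. The strain, ZM7247, carries the daf-16 deletion mu86, the daf-2 insulin receptor mutation e1370 on chromosome III, and on chromosome II the insertion hpSi4, in which the myo-3 promoter drives GFP::daf-16a. The myo-3 promoter is active in body wall muscle and some other non-pharyngeal muscle, so the tagged protein is expected mainly there, while the DNA came from whole animals. The name GFP::daf-16a puts GFP first, whereas a note in the labels describes a tag at the C terminus, with FLAG as well as GFP. No second genotype, no condition without the daf-2 mutation and no expression measurement is part of these data, so there is no contrast between groups and no test of one.

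Each peak has a signal, the value given by the authors' peak caller, which is used here only to describe and rank peaks within a list. The pooled list holds 30000 entries, called candidates here, and the replicate lists hold 26922 and 25562. Peaks that passed the authors' threshold on the irreproducible discovery rate (IDR peaks), 2563 in number, have pooled signals from 60.5 upwards with a median of 94.2, and no candidate outside that list has a higher signal. Agreement of the replicates at IDR peaks is therefore partly built into them. The files hold no read counts, so sequencing depth is unknown, and the intervals given below are Wilson 95% intervals of shares of genes or peaks. Promoter windows of 6 of 7 body wall muscle marker genes held an IDR summit, myo-3, unc-54, unc-15, mup-2, tnt-2 and unc-89, and those of 0 of 3 intestinal, 0 of 3 neuronal, 0 of 3 hypodermal and 0 of 2 pharyngeal muscle markers did. Among all nuclear protein-coding genes, 6.25% had an IDR summit in the window. Counts of 0 among so few markers therefore do not set those tissues apart from other genes. At myo-3, reads from the promoter copy in the transgene cannot be told apart from those of the gene itself.

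Homeodomain proteins bind DNA through a fold of helices that often reads an AT-rich core, and members of this class assign position and cell identity along the body axis and in neurons, muscle and gonad. The bHLH proteins bind as dimers to E-boxes, sites of the form CANNTG. In mesoderm of C. elegans, Hox factors with their PBX partner and the Twist orthologue HLH-8 act in the postembryonic M lineage, which makes body wall and sex muscles. FOXO proteins bind the DAF-16 binding element (DBE), TGTTTAC, and DAF-16 targets are also known for the DAF-16 associated element (DAE), CTTATCA.

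DAF-16 IDR peaks lay in promoter windows or introns of 5 of the 86 genes, hlh-11, ceh-18, hlh-13, ceh-38 and ceh-20, and 4 of the 8 peaks lay at hlh-11 alone. The window runs from 1000 bp upstream to 200 bp downstream of the most upstream 5′ end. Summits in other exons or further upstream are described below. The 5 genes are 5.81% of the 86 (2.51 to 12.9%), against 8.38% of all nuclear protein-coding genes with an IDR summit in window or introns. The sequences under 7 of these peaks are shown to let the letters at the summits be read; that of ceh-38, which lies in an untranslated exon, is not printed. The DBE and the DAE are in none of them, and among all nuclear IDR peaks they occur within 100 bp of the summit in 8.98% and 3.78%. Each runs 5′ to 3′ on the plus strand, 100 bp to either side of the summit where no exon intervenes, read from the RefSeq sequence of WBcel235. Capitals mark matches to 5 motifs searched on both strands: the DBE, the DAE, the E-box defined above, the homeodomain core TAATTA, and the repeat GAGAGA, which reads TCTCTC on the opposite strand. Matches may overlap each other.
hlh-11, 236 bp upstream of the 5′ end, III:9619375-9619575: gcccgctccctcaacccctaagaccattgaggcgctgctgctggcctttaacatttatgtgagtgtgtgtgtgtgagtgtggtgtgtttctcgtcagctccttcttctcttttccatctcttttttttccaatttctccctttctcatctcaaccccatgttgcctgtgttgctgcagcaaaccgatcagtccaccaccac
hlh-11, 37 bp upstream of the 5′ end, III:9619574-9619710, cut at the first exon: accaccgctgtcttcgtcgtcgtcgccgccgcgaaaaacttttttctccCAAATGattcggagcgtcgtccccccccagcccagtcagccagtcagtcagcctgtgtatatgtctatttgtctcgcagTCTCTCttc
hlh-11, 745 bp downstream in intron 1, III:9620356-9620556: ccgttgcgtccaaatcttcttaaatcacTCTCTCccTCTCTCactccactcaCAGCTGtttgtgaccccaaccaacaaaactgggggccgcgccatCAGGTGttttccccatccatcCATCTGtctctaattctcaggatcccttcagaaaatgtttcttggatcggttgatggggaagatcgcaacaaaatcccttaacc
hlh-11, 1500 bp downstream in intron 1, III:9621111-9621311: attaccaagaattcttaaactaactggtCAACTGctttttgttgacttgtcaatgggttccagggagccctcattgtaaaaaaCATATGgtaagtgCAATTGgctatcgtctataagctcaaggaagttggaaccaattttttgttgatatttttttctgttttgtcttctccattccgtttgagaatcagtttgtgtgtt
ceh-18, intron 2, X:3853974-3854174, a gene on the minus strand: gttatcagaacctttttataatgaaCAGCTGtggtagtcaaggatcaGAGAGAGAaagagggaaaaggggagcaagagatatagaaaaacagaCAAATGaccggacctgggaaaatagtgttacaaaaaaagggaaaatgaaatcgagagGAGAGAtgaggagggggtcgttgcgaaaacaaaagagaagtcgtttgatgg
ceh-20, 870 bp upstream, III:6978914-6979114: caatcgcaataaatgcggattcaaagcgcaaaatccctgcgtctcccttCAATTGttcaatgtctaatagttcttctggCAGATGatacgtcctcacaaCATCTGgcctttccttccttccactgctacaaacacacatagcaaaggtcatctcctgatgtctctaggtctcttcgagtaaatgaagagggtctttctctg
hlh-13, 902 bp upstream, X:4248247-4248447: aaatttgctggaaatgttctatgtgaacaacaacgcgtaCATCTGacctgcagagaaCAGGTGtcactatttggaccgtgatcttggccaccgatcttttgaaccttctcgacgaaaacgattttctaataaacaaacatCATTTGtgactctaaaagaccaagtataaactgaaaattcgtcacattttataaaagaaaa
The only DBE within 100 bp of any of the 68 candidate summits at these genes stands under a weaker neighbouring candidate of hlh-13, 14 bp from its summit.
hlh-13, 681 bp upstream, X:4248468-4248668: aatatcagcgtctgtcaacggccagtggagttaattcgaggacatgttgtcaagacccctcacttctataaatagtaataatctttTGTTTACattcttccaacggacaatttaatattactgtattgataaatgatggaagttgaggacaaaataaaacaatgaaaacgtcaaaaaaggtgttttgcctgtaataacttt

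The gene hlh-11 encodes the orthologue of the mammalian E-box factor AP-4, known in C. elegans as a repressor of the fat lipase gene atgl-1. It lies on the plus strand at III:9619711-9626529 and has 8 annotated transcripts with 6 different 5′ ends. The summit 236 bp upstream of the most upstream 5′ end, at III:9619475, had a pooled signal of 153 (rank 470), with 68.6 in replicate 1 and 92.8 in replicate 2. A weaker peak 37 bp upstream, at III:9619674, had a pooled signal of 82.0 (rank 1626), with 21.6 in replicate 1 and 39.9 in replicate 2. These 2 summits are 199 bp apart and the deposited peak regions overlap. Each is counted as a peak here, and whether they mark separate places of binding was not tested.

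The other 2 peaks of hlh-11 lie in its first intron, III:9619897-9622146, which is 2250 bp long. The one 745 bp downstream of the 5′ end, at III:9620456, had a pooled signal of 140 (rank 564), with 78.9 in replicate 1 and 66.2 in replicate 2. The one 1500 bp downstream, at III:9621211, was the strongest at any of the 86 genes, with a pooled signal of 175 (rank 336) and with 71.8 in replicate 1 and 106 in replicate 2. All 4 peaks were found in both replicates, and 3 of them exceed the median IDR signal, the peak next to the 5′ end being the exception. The next annotated 5′ end lies 936 bp beyond the stronger intron peak and 1691 bp beyond the weaker one. Across 1736 bp the 4 summits are spaced by 199, 782 and 755 bp. A further 5 intron candidates of hlh-11 had pooled signals of 25.3, 22.7, 17.9, 14.6 and 12.1, all below the weakest IDR peak. A total of 4 or more IDR summits in window and introns occurred in 1 of the 86 genes (1.16%, interval 0.206 to 6.3%) and in 0.0901% of all nuclear protein-coding genes, 18 of 19973. That number of summits was chosen from hlh-11 itself, so the contrast only describes it; 2 or more summits occurred in 1 of the 86 genes (1.16%) and in 1.03% of all genes, 206 of 19973.

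**Figure D1:**
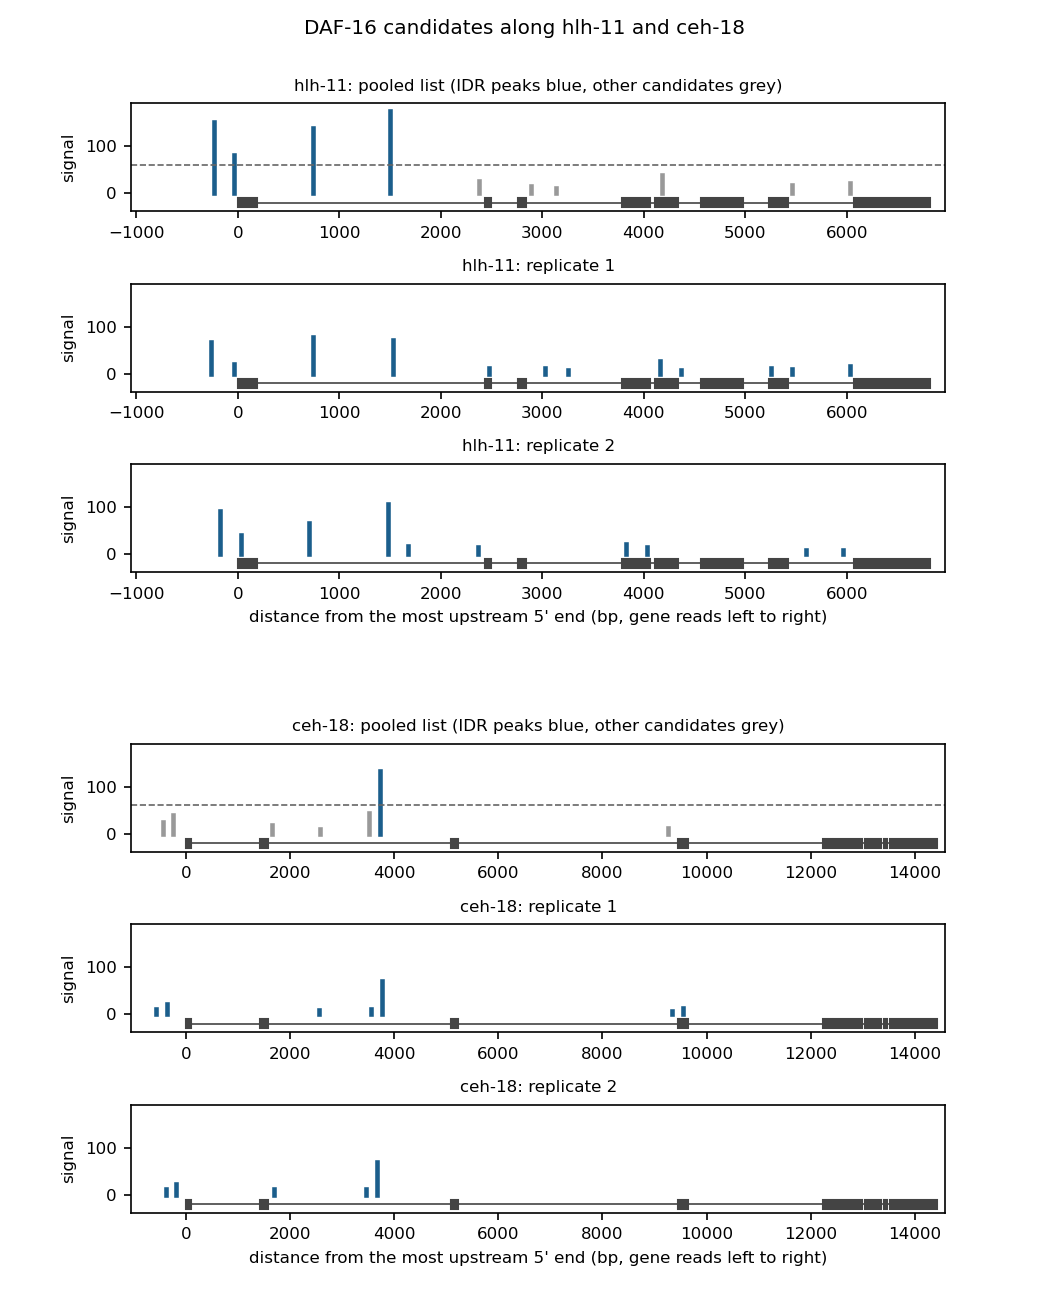
Pooled, replicate 1 and replicate 2 candidates along hlh-11 (upper panels) and ceh-18 (lower panels), with the distance from the most upstream 5′ end in bp on the x axis and the signal of the authors' caller on the y axis. Each line is 1 summit and boxes are exons of any transcript. In the pooled panels, blue lines are IDR peaks, grey lines are other candidates and the dashed line is the lowest pooled signal of an IDR peak, 60.5. There the 4 blue lines of hlh-11 stand at its 5′ end and in its first intron, and the blue line of ceh-18 stands in its second intron. All lines of the replicate panels are blue.

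Among the homeobox genes, ceh-18 had the strongest peak in a promoter window or an intron. It encodes a POU homeodomain protein that acts in gonadal sheath cells to hold back oocyte meiotic maturation. The gene lies on the minus strand at X:3843367-3857797. Its IDR summit, X:3854074 in the second intron (X:3852703-3856219), 3723 bp downstream of the most upstream 5′ end, had a pooled signal of 135 (rank 621), with 70.7 in replicate 1 and 70.3 in replicate 2. The replicates were closest to each other at this peak. Of annotated starts, that of the noncoding RNA gene ZC64.5 is nearest, 149 bp away, and a downstream 5′ end of ceh-18 itself lies 1372 bp on. A candidate beside it, at 3518 bp, had a pooled signal of 43.7, with 10.6 in replicate 1 and 12.6 in replicate 2. In the promoter window of ceh-18, 2 candidates had pooled signals of 41.2 and 24.6, below the weakest IDR peak.

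The remaining 3 genes had 1 IDR peak each, in the promoter window, and each of these peaks was below the median IDR signal. The gene hlh-13 (X:4249249-4250766, plus strand), orthologue of the vertebrate bHLH gene Ptf1a, had its summit at X:4248347, 902 bp upstream, with a pooled signal of 82.6 (rank 1605). Replicate 1 had 42.6 there, and the nearest replicate 2 summit, with 50.9, was 112 bp away, so that this was the only 1 of the 8 peaks without a summit of both replicates within 100 bp. Its second candidate, 681 bp upstream and holding the DBE shown above, had 37.6, with no summit of either replicate within 100 bp (the nearest were 221 bp away in replicate 1 and 106 bp away in replicate 2). The Onecut gene ceh-38 (II:6951526-6955409, plus strand, 24 transcripts with 11 different 5′ ends) had its summit 48 bp downstream of the first 5′ end, at II:6951574 in the 5′ untranslated exon, with a pooled signal of 78.4 (rank 1746), 37.7 in replicate 1 and 30.3 in replicate 2. The start of malt-1, on the other strand, lies 274 bp from the same summit, so it lies in the promoter window of both genes. The PBX gene ceh-20 (III:6979884-6981785, plus strand), whose product binds DNA together with Hox proteins, had its summit 870 bp upstream at III:6979014, with a pooled signal of 62.2 (rank 2454), 29.5 in replicate 1 and 35.6 in replicate 2. That is just above the lowest IDR signal. Among as many of the strongest candidates of replicate 2 alone, ceh-38 was missing, and among those of replicate 1 alone, ceh-20 was missing. A window reaching only 500 bp upstream leaves out the peaks of hlh-13 and ceh-20. Over the 7 peaks seen in both replicates, the replicate 1 signal was between 0.541 and 1.24 of the replicate 2 signal, higher in replicate 1 at 3 and in replicate 2 at 4.

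**Figure D2:**
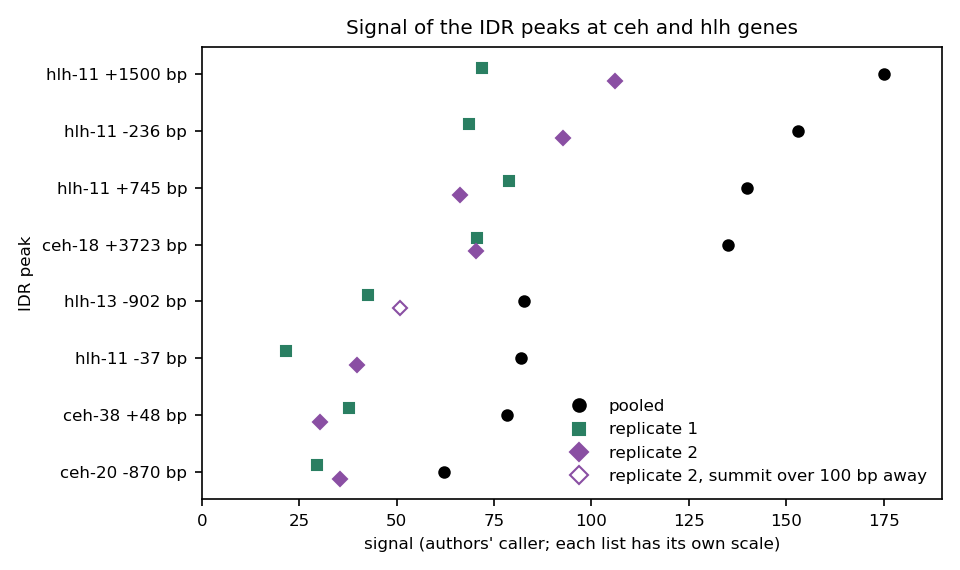
Signals of the 8 IDR peaks in promoter windows or introns of ceh and hlh genes (x axis, units of the authors' caller) in the pooled data, replicate 1 and replicate 2, ordered by pooled signal on the y axis with the distance from the most upstream 5′ end in bp. The replicate signals run from 21.6 at the peak of hlh-11 next to its 5′ end up to 106 at its stronger intron peak, and the open symbol is the replicate 2 summit 112 bp from the hlh-13 peak.

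The shares of the 86 genes with candidates and IDR peaks were near those of all genes. A candidate in the promoter window, from 1000 bp upstream to 200 bp downstream of the most upstream 5′ end, was present at 25 of 86 genes (29.1%, interval 20.5 to 39.4%), against 32.9% of all nuclear protein-coding genes. An IDR summit was present there at 4 of 86 (4.65%, 1.82 to 11.4%), against 6.25%. Among window candidate genes, 4 of 25 had an IDR summit (16%, 6.4 to 34.7%), against 19% of all such genes. In introns, 19 of 86 genes had a candidate (22.1%, 14.6 to 31.9%), against 23.2% of all genes with introns, and 2 of 86 had an IDR summit (2.33%, 0.64 to 8.09%), against 2.64%. Those 2 are 10.5% of the 19 genes with an intron candidate, against 11.4% of all such genes. Window and introns combined held an IDR summit at 5 of 86 genes (5.81%, 2.51 to 12.9%), against 8.38%. Each of these 7 backgrounds lies within the interval of the ceh and hlh genes, so no difference was detectable with the 86 genes as 1 set.

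Introns of the 86 genes, 156 kb in all, held 1.92 IDR summits per 100 kb, against 2.02 in the introns of all genes, and 20.5 candidates per 100 kb, against 29.5. Introns per gene had a median total length of 997 bp in the 86 genes, against 722 bp in all genes. The median signal of a gene's strongest window candidate was 23.4 in the 86 genes, against 23.0 in all genes, and that of the strongest intron candidate was 11.8, against 17.7. The median distance from the 5′ end to the nearest IDR summit was 15498 bp, against 19999 bp. On X, 2 of 24 of the genes had an IDR summit in window or introns (8.33%, 2.32 to 25.8%), against 3 of 62 autosomal ones (4.84%, 1.66 to 13.3%), intervals that overlap. Both intervals include the 8.38% of all nuclear protein-coding genes, a share that takes X and autosomes together. Shares of all genes on X alone or on autosomes alone were not counted.

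By class, a candidate in window or introns was present at 27 of 63 ceh genes (42.9%, 31.4 to 55.1%) and 5 of 23 hlh genes (21.7%, 9.66 to 41.9%), against 42.5% of all genes. The intervals of the ceh and hlh genes overlap, and the value of all genes lies just above the upper end of the hlh interval. In the window alone, 3 of 23 hlh genes had a candidate (13%, 4.54 to 32.1%), against 32.9% of all genes, again just above the interval, and 22 of 63 ceh genes did (34.9%, 24.3 to 47.2%). These are descriptions of shares, with no test. An IDR summit in window or introns was present at 3 of 63 ceh genes (4.76%, 1.63 to 13.1%) and 2 of 23 hlh genes (8.7%, 2.42 to 26.8%). The share of all genes was 8.38%, within both intervals.

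**Figure D3:**
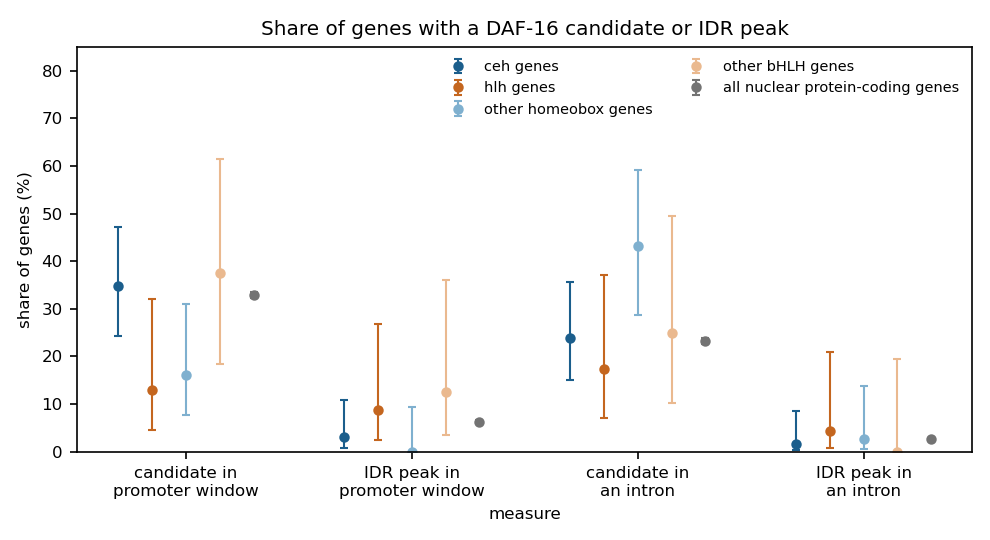
Share of genes, in percent on the y axis, with a candidate or an IDR peak in the promoter window or in an intron (groups along the x axis) among ceh genes, hlh genes, other homeobox genes, other bHLH genes and all nuclear protein-coding genes. Points are shares and bars Wilson 95% intervals; for IDR peaks the interval of each list includes the value of all genes, 6.25% in the window and 2.64% in introns, whereas for candidates the intervals of hlh genes and other homeobox genes lie below the 32.9% of all genes in the window, and that of other homeobox genes lies above the 23.2% of all genes in introns.

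Candidates at the 86 genes numbered 68, 36 in windows and 32 in introns, of which 8 are the IDR peaks. The other 60 had pooled signals from 9.26 to 59.3 with a median of 15.4. A summit within 100 bp in both replicates was found for 19 of the 60 (31.7%), against 22.4% of all pooled candidates below the IDR threshold, for 7 of the 8 IDR peaks, against 94.9% of all IDR peaks, and in neither replicate for 12 of the 60. The 25 genes with a window candidate include 12 that also had one in an intron, and 7 genes had one in an intron only.

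Just below the threshold stood ceh-43 and ceh-39. In the first, the Distal-less orthologue ceh-43 (III:4446638-4449943, minus strand), the strongest candidate lay 348 bp downstream of the 5′ end in an intron and had a pooled signal of 59.3 (rank 2626), with 31.8 in replicate 1 and 23.5 in replicate 2. That summit lies in a tRNA gene and in the noncoding RNA gene C28A5.12, both annotated within the intron, and both window candidates of ceh-43, at 38 and 31.7, also lie within 200 bp of a tRNA gene. No other candidate at the 86 genes lies that close to one, and the treatment of reads that match several tRNA copies is not stated. The Onecut gene ceh-39 (X:1853874-1856172, minus strand), one of the X-linked signals in sex determination, had its candidate 157 bp upstream with a pooled signal of 57.1 (rank 2798), 30.5 in replicate 1 and 22.6 in replicate 2. The start of the noncoding RNA gene T26C11.10 lies 144 bp from that summit.

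Weaker window candidates found in both replicates lay at genes of several families. The candidate of ceh-76, 754 bp upstream, had a pooled signal of 42.6, with 19.2 in replicate 1 and 21.2 in replicate 2. For ceh-89, 496 bp upstream, it was 36.7, with 19.4 in replicate 1 and 19 in replicate 2. For ceh-5, 481 bp upstream and inside an intron of ocrl-1, it was 34.3, with 20.3 in replicate 1 and 13.4 in replicate 2. All 3 lie well below the lowest IDR signal.

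Among the sine oculis-type genes, ceh-34, required for the identity of pharyngeal neurons, had 27.3 at 85 bp downstream, with 10.8 in replicate 1 and 15.6 in replicate 2, and ceh-33 had 26.1 at 837 bp upstream, with 10.6 in replicate 1 and 13.6 in replicate 2. The other gene of that family, ceh-32, had no candidate. The Onecut gene ceh-49 had 22.5 at 412 bp upstream, with 14.2 in replicate 1 and 8.25 in replicate 2. Among the achaete-scute genes, hlh-4, a determinant of the ADL sensory neuron, had 21 at 760 bp upstream, with 10.9 in replicate 1 and 10.5 in replicate 2, and 19.5 in an intron, with 13.3 in replicate 1 and 10.3 in replicate 2.

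Several ceh and hlh genes known for roles in muscle and mesoderm had weak candidates or none, whereas ceh-20, described above, had an IDR peak. Among all nuclear protein-coding genes, only 42.5% had a candidate in window or introns. Their median strongest signal was 23.0 in the window and 17.7 in introns, so weak or absent candidates are common among all genes. The labial-type Hox gene ceh-13 had 23.4 at 837 bp upstream, with 18.6 in replicate 2 and no replicate 1 summit within 100 bp. The Twist orthologue hlh-8 had 14.5 in an intron, 373 bp downstream, with 6.47 in replicate 1 and no replicate 2 summit within 100 bp. In the NK family, ceh-51, which acts in the embryonic MS lineage, had 12.5 at 31 bp upstream, with 8.21 in replicate 2 and no replicate 1 summit within 100 bp. The NK gene ceh-22, a regulator of pharyngeal muscle, had 9.27 in an intron and no summit of either replicate within 100 bp. For ceh-24, an NK gene expressed in vulval muscle, and hlh-2, the E protein with which many bHLH proteins pair, the pooled list had no candidate in window or introns. The proneural gene hlh-3 and the PBX gene ceh-60 had none either. Elsewhere the strongest intron candidates lay at ceh-17, a Phox2 orthologue, with 21.6, at ceh-33 with 16.1 and at hlh-33 with 15.4. Those of ceh-17 and hlh-33 had 17 and 13.1 in replicate 2 and no replicate 1 summit within 100 bp. That of ceh-33 had no summit of either replicate within 100 bp.

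By family, 1 of 3 PBX genes (ceh-20), 1 of 2 POU genes (ceh-18) and 1 of 6 Onecut and Cux genes matched in the annotation (ceh-38) had an IDR peak, and 4 of those 6 had a window candidate. Of 7 NK genes 5 had no candidate, of 6 paired-like genes 4 had none, and of 5 achaete-scute genes 4 had none. The 5 genes of the REF-1 family and the 3 Olig-like genes had no candidate at all in window or introns of the pooled list. Among all genes, 8.38% had an IDR summit in window or introns, 32.9% had a window candidate and 42.5% had a candidate in window or introns. In all, 54 of the 86 genes had no pooled candidate there and 32 had one (37.2%, 27.7 to 47.8%). Of the 54 genes without a pooled candidate, 8 had one in the replicate 1 list, 7 in the replicate 2 list and 1 of them in both. None of the 3 lists held a candidate at 40 genes. Absence from a list sets no upper limit on binding, since depth and the treatment of reads that match several places are unknown.

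**Figure D4:**
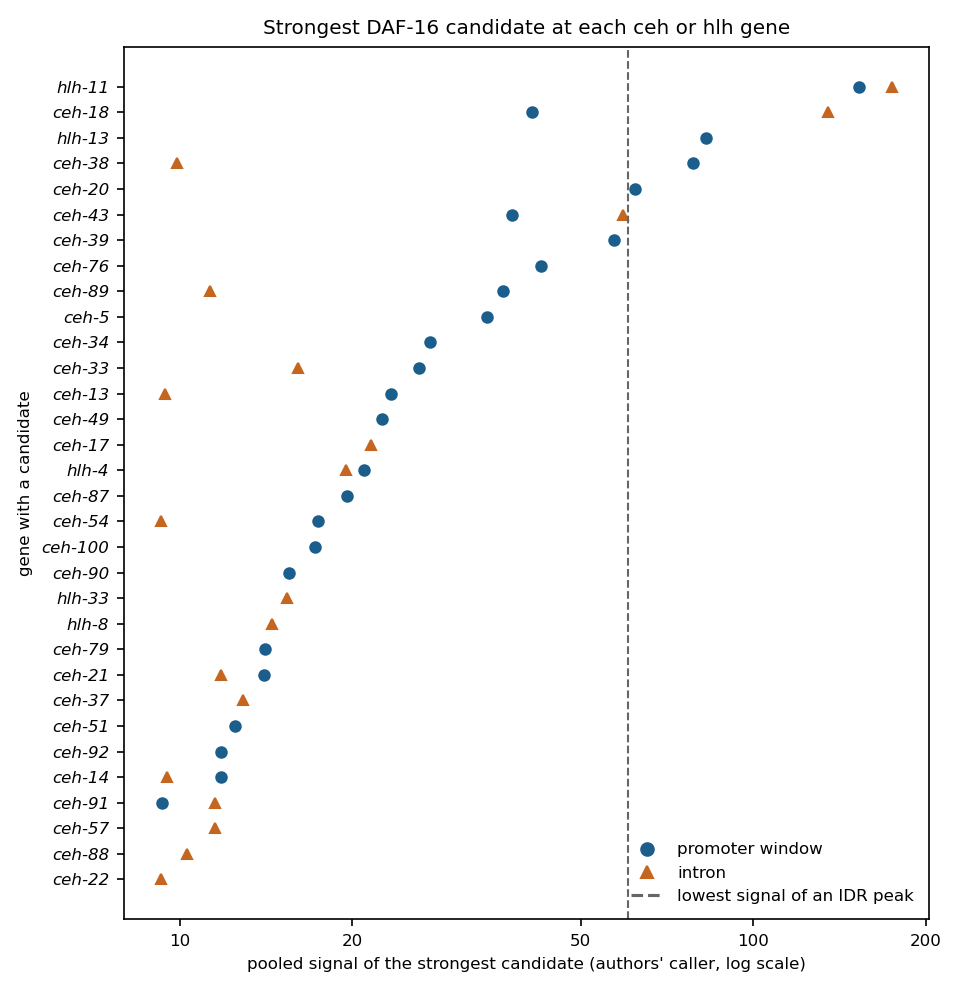
Pooled signal (x axis, log scale, units of the authors' caller) of the strongest candidate in the promoter window (circles) and in an intron (triangles) of each of the 32 ceh and hlh genes that have one (y axis, ordered by the stronger of both). The dashed line is the lowest signal of an IDR peak, 60.5; 5 genes reach past it, hlh-11 in window and intron, and ceh-43 and ceh-39 stand just left of it.

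The positional limits of the window left out some strong peaks. Upstream of the window, ceh-79 had an IDR summit at V:13300695, 1138 bp upstream, with a pooled signal of 166 (rank 390), 86.2 in replicate 1 and 79.0 in replicate 2. That is higher than 7 of the 8 peaks counted above. For ceh-5 one lay 1722 bp upstream, at I:9725447 in an untranslated exon of eat-16, with 86, 37.2 in replicate 1 and 40.8 in replicate 2. Neither gene had another IDR summit within the window. In exons, which the rule does not count, ceh-8, a Rax orthologue, had a summit in its untranslated exon at I:8245632 with 143, 54.7 in replicate 1 and 82.7 in replicate 2, and the nearest protein-coding start there is that of col-63, 669 bp away. The distal tip cell migration gene hlh-12 had a summit in coding sequence at IV:8478710, 736 bp downstream of its 5′ end, with 142, 67.7 in replicate 1 and 61.3 in replicate 2. The LIM homeobox gene ceh-14 had one in an untranslated exon at X:7528196 with 61.3, 29.1 in replicate 1 and no replicate 2 summit within 100 bp.

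Homeobox and bHLH genes with other names were counted for comparison. Of 37 such homeobox genes, 0 of the 6 with a window candidate had an IDR summit there, against 19% of all such genes, and 1 had one in an intron. That gene was mab-5, an Antennapedia-type Hox gene that acts in the posterior body and the M lineage, with a pooled signal of 72.6 at III:7778694, 34.3 in replicate 1 and 35.9 in replicate 2. Intron candidates were present at 16 of these 37 genes (43.2%, 28.7 to 59.1%), against 23.2% of all genes with introns, and their introns have a median total of 3409 bp per gene, against 722 bp in all genes. Of 16 bHLH genes, 2 of the 6 with a window candidate had an IDR summit there (33.3%, 9.68 to 70%), against the same 19%. The Mad-like gene mdl-1 had 121 at X:6742210, 141 bp upstream, with 66.0 in replicate 1 and 54.8 in replicate 2. The Max-like gene mxl-3, a repressor of lysosomal lipases, had 75.2 at X:13350872, 68 bp upstream, with 41.2 in replicate 1 and 38.3 in replicate 2.

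The DBE was found within 100 bp of 0 of the 8 IDR summits at the ceh and hlh genes, which allows up to 32.4% by the Wilson interval, against 8.98% of all nuclear IDR peaks, and within 100 bp of 1 of the 60 other candidates, against 2.45% of all other candidates. The DAE was found at 0 of 8, against 3.78% of all nuclear IDR peaks, and at 2 of 60, against 3.37% of all other candidates. An E-box, the site class that bHLH proteins themselves bind, lay at 7 of the 8 (87.5%, 52.9 to 97.8%), against 67.4% of all nuclear IDR peaks, and at 34 of the 60 (56.7%), against 56.5% of all other candidates. The hlh-11 peak 236 bp upstream, the first sequence above, was the one without. The homeodomain core TAATTA lay at 0 of 8, against 3.54% of all nuclear IDR peaks, and at 6 of 60 (10.0%), against 9.52% of all other candidates. GAGAGA lay at 3 of 8 (37.5%, 13.7 to 69.4%), against 41.3% of all nuclear IDR peaks, and at 7 of 60 (11.7%), against 16.1% of all other candidates. For all 5 motifs the share among all nuclear IDR peaks lies within the interval of the 8 peaks. These intervals treat the 8 peaks as independent, and they can be too narrow. Several of the peaks lie at hlh-11, where 2 summits are only 199 bp apart. A match is a description of letters, not a measured site.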

How the data were processed

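ChIP-seq of 1 group of 2 biological replicates was analysed from the deposited ce11 peak lists, which the authors made per replicate, on both replicates pooled, and after an IDR threshold. The deposited lists give each peak's signal, a value of the authors' caller whose scale is not given, and another deposited column gives the summit's position within the peak. A control library is named in the files' derivations and was not analysed here. No source used here gives the aligner, the caller or the IDR cutoff. Most pooled candidates (97.2%) are 436 bp wide, so positions are summits, 1-based. Peak ends were checked against WBcel235 chromosome lengths, and genes came from Ensembl release 115. A promoter window covered 1000 bp before the most upstream 5′ end and 200 bp after it. Introns were bases of a gene outside all its annotated exons. Lists were matched by summits within 100 bp, and motifs were searched within 100 bp.

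The gene set, the comparison lists and the settings were chosen with earlier results of these data known. Named genes are those with an IDR summit, the 10 and 5 others with the strongest window and intron candidates, and a fixed list of family representatives; genes named outside these, such as those with exonic or more distant summits, were chosen after their values were seen. With 1 group no test was made, and shares have Wilson 95% intervals. The assignment of summits to genes was tested on simulated data. Python 3.11.15, pandas 2.3.3, numpy 2.4.6 and matplotlib 3.10.9 were used.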

Additional observations from a re-analysis of the deposited data

How the results depend on the processing

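Of 54 values under changed settings, 39 stayed near the reported one (a count within 1.5 times of it, a share within its Wilson 95% interval) and 15 did not. A window of 500 bp upstream to 100 bp downstream left IDR summits at 2 ceh and hlh genes (ceh-38 and hlh-11) and candidates at 14; one of 2000 bp upstream to 200 bp downstream gave 4 of the other homeobox and bHLH genes (adding dsc-1 and hif-1) and, among all genes with a window candidate, an IDR summit at 20.8%. Counting the nearest 5′ end only gave 15.4% for that share. IDR peaks of at least the median signal left 1 ceh or hlh gene in the window (hlh-11), 1 of the other genes (mdl-1), and IDR summits at 9.92% of all genes with a window candidate and in introns of 1.42% of all genes with introns. Introns of the longest transcript gave 2.39% for the last share. Matching within 50 bp left 4 IDR peaks at ceh and hlh genes found in both replicates. TAATTA lay within 150 bp of 1 peak, and GAGAGA within 50 bp of 1 and within 150 bp of 5. From 1 replicate alone, the strongest 2563 candidates gave 3 ceh and hlh genes in the window either way and 2 or 3 in introns (ceh-43 with replicate 1 alone), 2 or 3 of the other genes, and 19.3 to 20.1% of all genes with a window candidate. The cause of these shifts was not tested. The gene hlh-11 had an IDR summit in every window setting. No paired analysis was possible because there is 1 group. Depth is unknown, which limits what the absence of a candidate shows, and with 8 IDR peaks at these genes the intervals of motif shares are wide.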

Other observations

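The E-box CAGCTG, the form preferred by the vertebrate AP-4 protein, was counted after the sequences had been seen. It lay within 100 bp of 2 of the 8 IDR summits at ceh and hlh genes (25%, Wilson 95% interval 7.15 to 59.1%), those in the introns of ceh-18 and hlh-11, against 10.5% of all nuclear IDR peaks. Among the other 60 candidates at these genes it lay at 2 (3.33%), against 5.84% of all other candidates.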
